A study of Homo sapiens with 6 samples.

Results

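The genes described here carry glucose from the cell surface to lactate, into the pentose phosphate pathway or into the mitochondrial use of pyruvate. They were chosen by name as 36 enzymes and carriers, with earlier results of these data known. All were found as rows of 1 deposited count table that holds 56303 rows. Read counts were compared between 3 libraries of A549 cells given a negative-control siRNA and 3 libraries of A549 cells given an siRNA against HNRNPD. A549 is an established cell line from a human lung adenocarcinoma, and HNRNPD encodes AUF1, a protein that binds AU-rich sequences in mRNAs. The labels give no siRNA sequence and no time after transfection. They do not say whether the numbered libraries are separate cultures. The p-values therefore measure only how far these libraries spread, and that spread may be technical.

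Glycolysis splits 1 glucose into pyruvate and yields a little ATP, and lactate dehydrogenase turns pyruvate into lactate so that NAD+ is regained. Many tumour cells run glycolysis fast even with oxygen at hand. The pentose phosphate pathway leaves glycolysis after the first phosphorylation and supplies NADPH and ribose, and the pyruvate dehydrogenase complex commits pyruvate to the mitochondria unless its kinases switch it off. Several steps have more than 1 gene, and the encoded isozymes differ in affinity, regulation or tissue.

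The libraries held 37151094 to 43005090 counts. HNRNPD itself stood at 964.5, 942 and 941 CPM (counts per 1000000 counts, on totals scaled by the TMM method) in the control libraries and at 177, 162.5 and 167 CPM in the HNRNPD siRNA libraries, in the direction of the labels in all 6 (log2 fold change -2.49, SE 0.06, edgeR adjusted p = 1.41e-15). All 9 markers of A549 fixed for the check were found, and 8 of them reached over 10 CPM. Their summed level was 10610 to 11470 CPM in the control libraries and 6553 to 7750 CPM in the siRNA libraries. KRT8 and ALDH1A1 made up most of it, with means of 3324 and 5156 CPM in control and 2053 and 3784 CPM after HNRNPD siRNA. The means of KRT18 (992 and 587 CPM), KRT19 (7.54 and 3.83 CPM) and AKR1B10 (913 and 469 CPM) were lower as well. So were those of AKR1C1 (279 and 150 CPM) and VIM (121.5 and 79.7 CPM). CDH1 was slightly lower (95.7 and 87.3 CPM), and of the fixed markers only EPCAM was higher (16.6 and 20.9 CPM). Of the markers of blood cells, endothelium and fibroblasts, only CD14 and COL1A1 passed 1 CPM in any library, while PTPRC, CD3E, LYZ, CDH5 and DCN were near 0. The 2 neuronal markers, SNAP25 and SYT1, summed to 47.2 to 50.3 CPM in control and 104 to 112 CPM in siRNA libraries, and their part in the results was not tested. In bulk RNA, fewer cells of a type and less RNA per cell cannot be told apart.

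Most of the pathway was lower after HNRNPD siRNA. Of the 36 genes, 25 were lower and 6 higher, and 5 were not called. A call is an adjusted p under 0.05 in edgeR's quasi-likelihood test, with Benjamini-Hochberg adjustment over all 20465 genes tested. All 36 passed the filter on low counts. Over all tested genes 27.8% were lower and 28.4% higher. The share of lower calls among the 36 was thus well above that of the table and the share of higher calls below it. Because the genes were chosen with earlier results of these data known, this describes the list and is no independent test of it. Falls of at least 2-fold were found for 11 of the 36, against 6.09% of all tested genes. A rise of at least 2-fold was found for 1, SLC2A3, against 10.2% of all tested genes. Abundant genes are called more readily. Of the 28 members with a mean of at least 10 CPM, 21 were lower and 5 higher, against 38.1% and 31.2% of the 8950 tested genes at that level. The median log2 fold change was -0.73 over the 36, against 0.01 over all tested genes and -0.05 over those with at least 10 CPM.

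**Figure D1:**
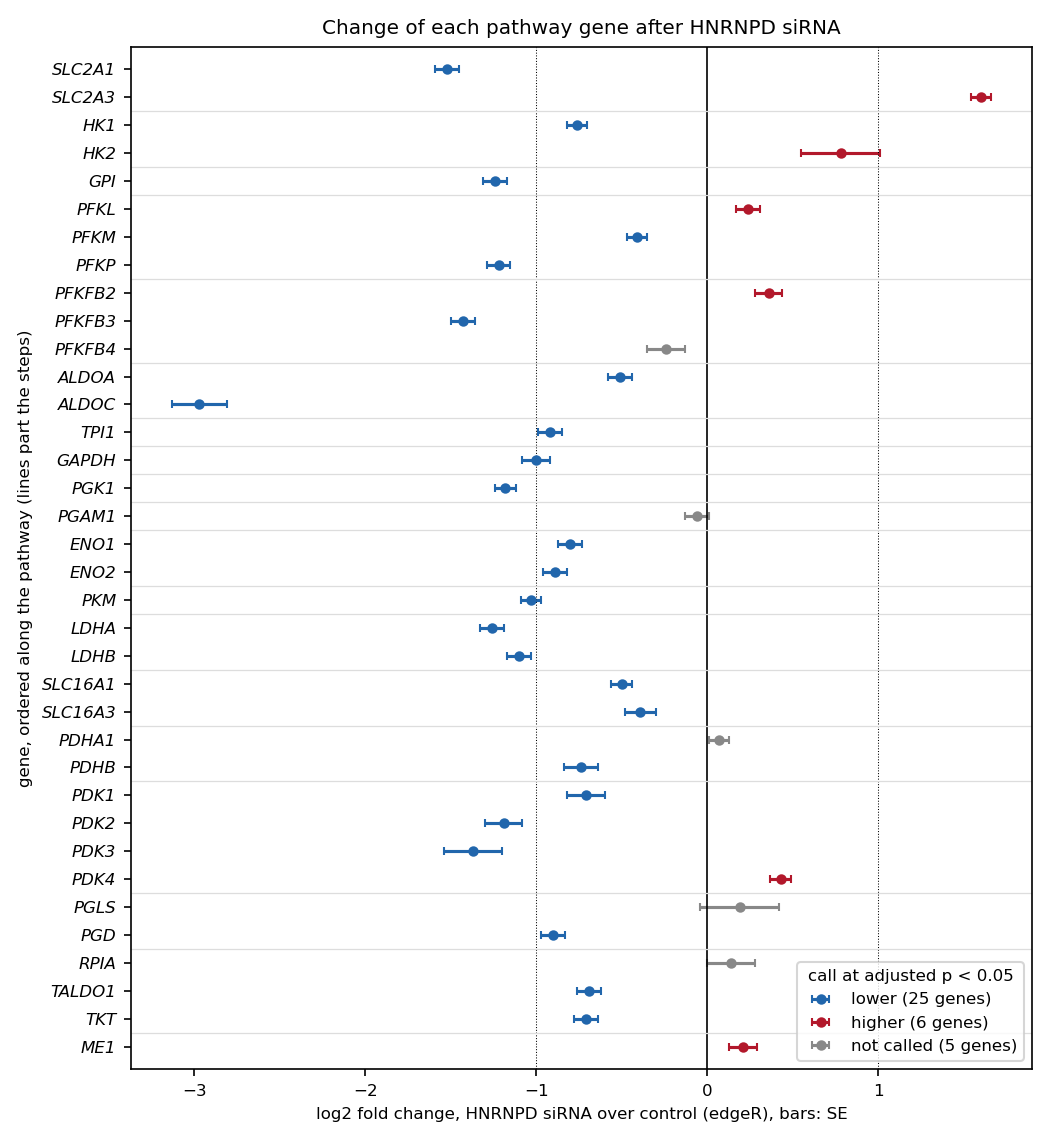
Log2 fold change of each of the 36 genes (x axis, HNRNPD siRNA over control, edgeR) from uptake at the top to malic enzyme at the bottom, with bars for the standard error and dotted lines at a 2-fold change. The 25 lower genes are spread over the whole pathway, and SLC2A3 is the 1 gene right of the upper 2-fold line.

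Together the 36 genes took 1.148%, 1.05% and 1.05% of all control counts, while their share after HNRNPD siRNA was 0.622%, 0.651% and 0.569%. The groups did not overlap in 30 of the 36 genes, against 62.6% of all tested genes. They overlapped for HK2, PGAM1, PDHA1, PGLS, RPIA and ME1. Among the siRNA libraries replicate 3 was the lowest for 24 of the 36 genes and for 19 of the 25 lower ones. Its median log2 ratio to the control mean was -0.85, against -0.65 in replicate 1 and -0.71 in replicate 2. Without replicate 3 of the siRNA group, 26 genes were lower and 6 higher, with a median log2 fold change of -0.66.

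**Figure D2:**
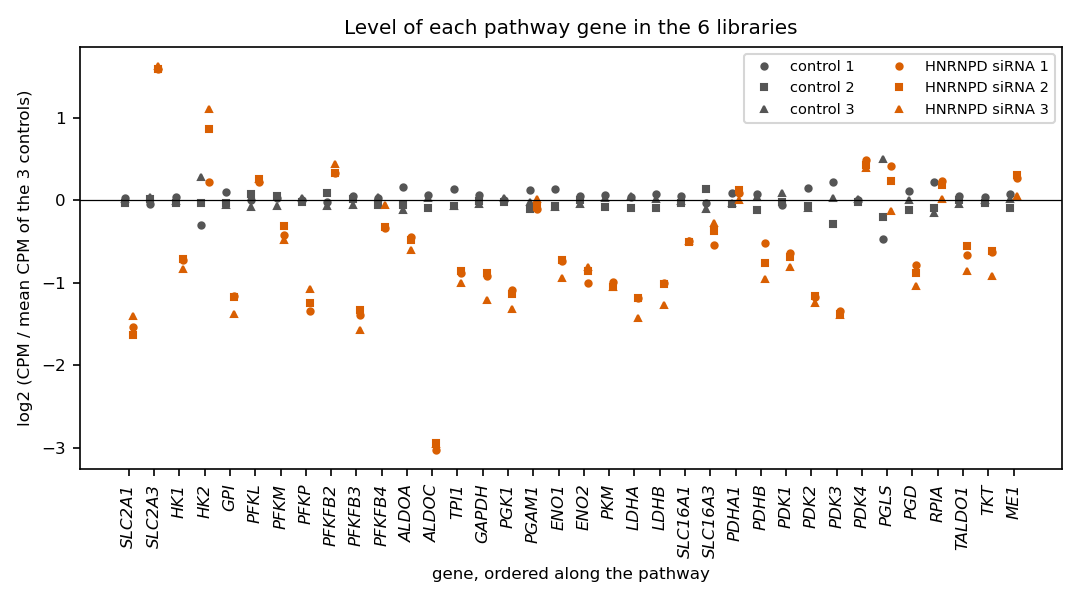
Level of the 36 genes in each library, as log2 of the CPM over the mean CPM of the 3 controls (y axis), with control libraries in grey and HNRNPD siRNA libraries in orange, and a symbol for each replicate. The 3 siRNA libraries lie close together for most genes, and siRNA replicate 3 (triangles) is often the lowest of the 3, as for GAPDH, LDHA and TKT.

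The promoters of some genes are shown as examples, which were not chosen by a fixed rule. They are those of ALDOC, SLC2A1, LDHA and PGK1, which fell by at least 2-fold, and HK2 and PDK4, which rose. Each line gives the 250 bases before the most upstream start that RefSeq lists for the gene (GRCh38.p14), 5′ to 3′ on the gene's strand. Capitals mark ACGTG on either strand, that is ACGTG or CACGT, which is the core of a common form of the hypoxia response element and part of the E-box CACGTG. The windows are chr17:28576896-28577145 (minus strand) for ALDOC, chr1:42958869-42959118 (minus) for SLC2A1, chr11:18394313-18394562 (plus) for LDHA, chrX:78103998-78104247 (plus) for PGK1, chr2:74833877-74834126 (plus) for HK2 and chr7:95596517-95596766 (minus) for PDK4.
ALDOC: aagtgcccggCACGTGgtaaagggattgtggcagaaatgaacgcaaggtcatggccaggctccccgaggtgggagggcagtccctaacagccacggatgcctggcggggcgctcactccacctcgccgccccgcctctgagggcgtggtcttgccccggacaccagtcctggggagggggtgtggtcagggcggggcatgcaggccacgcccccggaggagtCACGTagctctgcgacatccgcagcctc
SLC2A1: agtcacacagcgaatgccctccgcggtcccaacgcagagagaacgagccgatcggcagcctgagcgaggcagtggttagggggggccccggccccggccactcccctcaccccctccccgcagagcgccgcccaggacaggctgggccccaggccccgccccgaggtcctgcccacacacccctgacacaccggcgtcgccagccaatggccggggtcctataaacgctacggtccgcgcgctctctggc
LDHA: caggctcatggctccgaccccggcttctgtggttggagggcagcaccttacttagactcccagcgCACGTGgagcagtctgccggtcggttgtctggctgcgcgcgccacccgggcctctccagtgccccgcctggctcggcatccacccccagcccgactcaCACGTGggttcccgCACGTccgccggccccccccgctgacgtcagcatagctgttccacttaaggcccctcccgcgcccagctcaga
PGK1: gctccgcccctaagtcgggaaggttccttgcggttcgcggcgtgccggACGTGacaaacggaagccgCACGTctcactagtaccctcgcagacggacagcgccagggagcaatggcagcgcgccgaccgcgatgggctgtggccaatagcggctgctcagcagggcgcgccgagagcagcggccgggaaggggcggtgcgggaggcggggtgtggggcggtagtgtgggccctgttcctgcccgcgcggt
HK2: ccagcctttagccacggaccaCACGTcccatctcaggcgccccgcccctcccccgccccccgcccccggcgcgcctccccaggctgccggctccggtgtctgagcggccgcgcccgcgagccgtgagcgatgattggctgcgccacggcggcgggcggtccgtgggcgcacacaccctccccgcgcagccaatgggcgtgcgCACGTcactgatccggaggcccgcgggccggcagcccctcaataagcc
PDK4: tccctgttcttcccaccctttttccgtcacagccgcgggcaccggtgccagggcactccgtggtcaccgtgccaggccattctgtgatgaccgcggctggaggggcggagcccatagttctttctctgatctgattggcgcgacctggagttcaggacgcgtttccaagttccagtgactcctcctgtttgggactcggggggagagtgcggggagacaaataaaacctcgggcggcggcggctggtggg

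Counting each strand, so that the palindrome CACGTG counts as 2, ACGTG occurred 5 times in the LDHA window, 3 times in that of ALDOC and 2 times each in those of PGK1 and HK2. It did not occur in those of SLC2A1 and PDK4. Of the other genes that fell by at least 2-fold, GPI and PDK3 had ACGTG, and PFKP, PFKFB3, PKM, LDHB and PDK2 did not. RefSeq windows were matched for 33 of the 36 genes, all but SLC2A3, PFKFB2 and SLC16A1. ACGTG on either strand was found in 11 of the 33 windows (33.3%), and in 18.6% of the 27305 windows of all listed genes. The 11 comprised 10 of the 24 lower genes with a window, 1 of the 4 higher genes and 0 of the 5 genes not called. GCGTG, the other form of the hypoxia core, was in 13 of the 33 (39.4%) and in 31.9% of all windows. It was in 7 of the 24 lower genes, 3 of the 4 higher genes and 3 of the 5 genes not called. Its split thus differed from that of ACGTG, but the higher genes and those not called are too few to compare the 2 forms. The full E-box CACGTG was in 4 of the 33, all lower genes (LDHA, ALDOC, GAPDH and PDHB), and in 6.46% of all windows. The windows of all listed genes were not limited to genes tested here, whereas the 33 all belong to tested genes. The shares thus compare unlike sets, and whether that accounts for the differences was not tested. A match of so few letters describes the sequence only, and whether a factor binds there was not measured.

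At glucose uptake the 2 transporter genes moved in opposite directions. SLC2A1 encodes GLUT1, the basal glucose transporter of most cells (chr1:42925375-42959173, minus strand, GRCh38). It stood at 53.1, 51 and 52.9 CPM in the control libraries and at 18, 16.9 and 19.8 CPM in the siRNA libraries. This is a 2.87-fold fall with no overlap between the groups (log2 fold change -1.52, SE 0.07, edgeR adjusted p = 5.61e-12). SLC2A3 encodes GLUT3, a transporter of high glucose affinity best known from neurons (chr12:7919230-7936275, minus strand). It rose from 73.8, 77.4 and 78.2 CPM to 229, 229.5 and 236 CPM, or 3.03-fold (log2 fold change 1.60, SE 0.06, edgeR adjusted p = 1.43e-13). The highest siRNA library was 1.03 times the lowest, and no siRNA library came near the controls. Different genes are set side by side here per kilobase of gene length. That length covers the exons of all annotated transcripts, so such comparisons depend on the annotation. On this scale SLC2A3 took 52.7%, 54.8% and 54.2% of the sum of both transporters under control siRNA. Under HNRNPD siRNA it took 91.1%, 91.6% and 90.5% of the sum of both. Their summed level rose from 23.1 ± 0.355 to 41.3 ± 0.878 CPM per kilobase (SD, n = 3). SLC2A3 has near-identical relatives. Its paralog SLC2A14 was called higher as well, from 0.644 to 2.15 CPM, and 3 pseudogene rows named after SLC2A3 held 761, 844 and 909 control counts against 686, 749 and 715 counts after HNRNPD siRNA. The sources used here do not say how multiply matching reads were treated.

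The 2 hexokinase genes among the 36 also moved in opposite directions. Their summed level fell from 17.4 ± 0.459 in control to 10.5 ± 0.386 CPM per kilobase in siRNA libraries (SD, n = 3). HK1, the housekeeping hexokinase, was lower, at 107, 101.5 and 104 CPM in control and 63.2, 63.2 and 58.3 CPM in siRNA libraries (1.69-fold, log2 fold change -0.76, SE 0.06). HK2, the inducible hexokinase of muscle and tumours, was scarce, at 1.149, 1.38 and 1.72 CPM in control and 1.65, 2.58 and 3.05 CPM in siRNA libraries. These values overlap, since siRNA replicate 1 lies below control replicate 3. HK2 was called higher (log2 fold change 0.78, SE 0.23, edgeR adjusted p = 0.00854), and the call was lost without control replicate 1 (log2 fold change 0.64, edgeR adjusted p = 0.0525). Its share of the per-kilobase level of HK1 and HK2 was 1.34% ± 0.284 in control and 3.81% ± 1.22 in siRNA libraries (SD, n = 3). HKDC1, a further hexokinase that is not among the 36, was more abundant per kilobase than HK1 and fell from 27.6 ± 0.361 to 13.4 ± 0.376 CPM per kilobase (SD, n = 3).

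The next enzymes lead to the main control point of the pathway. GPI, which turns glucose 6-phosphate into fructose 6-phosphate, fell 2.36-fold, from 287, 261 and 257 CPM to 119.5, 119 and 103 CPM (log2 fold change -1.24, SE 0.07). Phosphofructokinase, the committed step, is built from platelet, liver and muscle type subunits. PFKP, the platelet type and the most abundant of the 3 here, fell from 353, 348 and 362 CPM to 140, 149 and 168 CPM (log2 fold change -1.22, SE 0.07, edgeR adjusted p = 3.11e-11). PFKM, the muscle type, was lower by 1.33-fold (log2 fold change -0.41, SE 0.06). PFKL, the liver type, was slightly higher, at 32.3, 34 and 30.5 CPM in control and 37.4, 38.3 and 38.6 CPM in siRNA libraries. Its log2 fold change of 0.24 (SE 0.07) was not called without control replicate 3 (log2 fold change 0.19, edgeR adjusted p = 0.0533). PFKP made up 84.4% ± 0.887 of the per-kilobase level of the 3 genes in control and 72.7% ± 2.13 in siRNA libraries (SD, n = 3). The summed level of the step was 86.9 ± 0.82 and 43.3 ± 2.78 CPM per kilobase (SD, n = 3).

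The PFKFB enzymes make and break the sugar bisphosphate that activates phosphofructokinase, and PFKFB3 is the one that favours synthesis most strongly. PFKFB3 (chr10:6144934-6235545, plus strand) stood at 249, 242 and 229.5 CPM in control libraries and at 91.6, 95.2 and 80.6 CPM in siRNA libraries. The fall was 2.69-fold (log2 fold change -1.43, SE 0.07, edgeR adjusted p = 4.42e-12), and every siRNA library lay below every control. PFKFB2, the heart type, was higher, at 17, 18.3 and 16.3 CPM in control and 21.6, 21.5 and 23.3 CPM in siRNA libraries (log2 fold change 0.36, SE 0.08). PFKFB4 was not called, at 8.87, 8.4 and 8.96 CPM in control and 6.89, 6.98 and 8.39 CPM in siRNA libraries (log2 fold change -0.24, SE 0.11, edgeR adjusted p = 0.0781). Without siRNA replicate 3, the highest of its group, PFKFB4 was called lower (log2 fold change -0.34, edgeR adjusted p = 0.0124). PFKFB3 held 93.4% ± 0.209 of the per-kilobase level of the 3 genes in control and 82.7% ± 2.26 in siRNA libraries (SD, n = 3).

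Of all 36 genes the largest change was that of an aldolase. ALDOC, the aldolase of brain (chr17:28573115-28577264, minus strand), stood at 7.51, 6.69 and 7.31 CPM in control and 0.879, 0.93 and 0.923 CPM in siRNA libraries. The counts behind these values were 320, 287 and 307 against 32, 39 and 37. This 7.84-fold fall (log2 fold change -2.97, SE 0.16, edgeR adjusted p = 2.46e-11) was seen alike in the siRNA libraries, at 0.911 ± 0.0278 CPM (SD, n = 3). A share of 10.1% of the exonic bases of ALDOC also belongs to other rows of the table, and the largest overlap is with a gene on the opposite strand. ALDOA, the main aldolase of most tissues, fell less, from 166, 143 and 136.5 CPM to 109, 106 and 97.4 CPM (log2 fold change -0.51, SE 0.07). ALDOC thus went from 9.26% ± 0.76 to 1.81% ± 0.142 of the per-kilobase level of both (SD, n = 3), and their sum fell from 26.6 to 17.2 CPM per kilobase. Without division by gene length the difference in share was -3.76 percentage points, in place of -7.45.

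Of the enzymes from triose phosphate to pyruvate, all but 1 were lower. TPI1, which interconverts the triose phosphates, fell 1.89-fold, from 568, 493 and 492 CPM to 279, 284 and 258 CPM. GAPDH, which makes the first NADH of the pathway and is often used as a reference gene, stood at 1165, 1106 and 1084 CPM in control and at 592, 608 and 481 CPM in siRNA libraries. That is a fall of just under 2-fold (1.996-fold, SE 0.08 on the log2 scale, edgeR adjusted p = 1.08e-08), with siRNA replicate 3 below the other two. GAPDH shares 14.2% of its exonic bases with other rows of the table, and the largest overlap is with a gene on the opposite strand. PGK1, the first ATP-yielding enzyme of the pathway (chrX:78065188-78129296, plus strand), fell 2.26-fold, from 196, 192 and 198 CPM to 92, 89 and 78.3 CPM.

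PGAM1, the phosphoglycerate mutase, was the exception. Its levels were 83.4, 71 and 75.8 CPM in control and 71.2, 72.2 and 77.1 CPM in siRNA libraries, and they overlapped (log2 fold change -0.06, SE 0.07, edgeR adjusted p = 0.455). It was not called under any of the 15 alternative settings, in which leaving out single libraries gave log2 fold changes of -0.12 to -0.01. The 12 pseudogene rows named after PGAM1 held 20 to 34 counts in each library.

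ENO1, the ubiquitous enolase, fell 1.74-fold, from 1701, 1477 and 1461 CPM to 925, 931 and 806 CPM. ENO2, the enolase of neurons, fell by a similar ratio, from 49.2, 47.6 and 46.3 CPM to 23.8, 26.3 and 27.3 CPM. The share of ENO2 in the per-kilobase level of both was 2.78% ± 0.156 in control and 2.63% ± 0.364 in siRNA libraries (SD, n = 3), and the groups overlapped. PKM, the pyruvate kinase of most tissues and tumours (chr15:72199029-72231822, minus strand), stood at 1843, 1665 and 1791 CPM in control and at 890, 850 and 849 CPM in siRNA libraries. This is a 2.05-fold fall (log2 fold change -1.03, SE 0.06, edgeR adjusted p = 1.05e-10). The gene yields the splice forms M1 and M2, which counts per gene do not separate. Of the 15 enzyme genes from hexokinase to pyruvate kinase, 12 were lower and 2 higher, with a median log2 fold change of -0.89. The shares of all tested genes were 27.8% lower and 28.4% higher. Of the 13 with a mean of at least 10 CPM, 11 were lower and 1 higher. At that level 38.1% of all tested genes were lower and 31.2% higher.

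**Figure D3:**
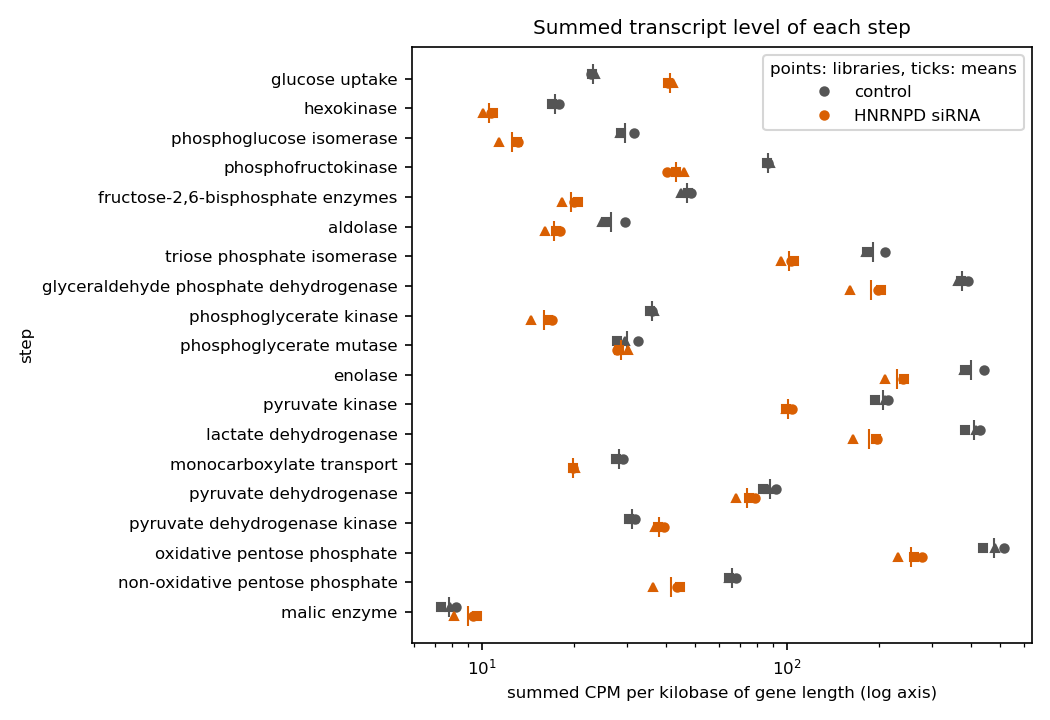
Summed level of the genes of each step in CPM per kilobase of gene length (x axis, log scale), with points for the 3 control (grey) and 3 HNRNPD siRNA libraries (orange) and ticks for the means. Every step from hexokinase to lactate lies lower in the siRNA libraries except phosphoglycerate mutase, where the groups overlap, while glucose uptake and the pyruvate dehydrogenase kinases lie higher.

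The genes of lactate dehydrogenase and of lactate transport were lower. LDHA, the lactate dehydrogenase subunit that favours lactate (chr11:18394388-18408425, plus strand), fell from 779, 708 and 782 CPM to 331, 333 and 282 CPM (2.40-fold, log2 fold change -1.26, SE 0.07, edgeR adjusted p = 6.08e-11). LDHB, the subunit that favours pyruvate, fell from 904.5, 807 and 866 CPM to 429, 423 and 354.5 CPM (2.14-fold, log2 fold change -1.10, SE 0.07). LDHB made up 70.7%, 70.4% and 69.8% of the per-kilobase level of both in control and 72.9%, 72.5% and 72.4% in siRNA libraries, a difference of 2.32 percentage points. The gene length used for LDHA, 6210 bases, covers the exons of all its annotated transcripts, against 2983 bases for LDHB, so these shares depend on which transcripts are present. SLC16A1 encodes MCT1, a carrier of lactate and pyruvate in either direction, and fell from 144, 135 and 137 CPM to 98.5, 97.3 and 98.6 CPM (log2 fold change -0.50, SE 0.06). SLC16A3 encodes MCT4, a carrier known for lactate export, and stood at 17.1, 19.3 and 16.3 CPM in control and 12, 13.6 and 14.5 CPM in siRNA libraries (log2 fold change -0.39, SE 0.09, edgeR adjusted p = 0.00156). The share of SLC16A3 in both carriers overlapped between the groups, at 6.96% ± 0.71 and 7.45% ± 0.655 (SD, n = 3).

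Isozyme shares were compared for 8 sets of genes with an exact permutation test over the libraries, two-sided. With 3 libraries against 3 the smallest p this test can give is 0.10, so none could pass 0.05. The p was 0.10 for the shares of SLC2A3, HK2, ALDOC, LDHB, PFKFB3 and PFKP (0.133 adjusted over the 8), whose groups did not overlap. It was 0.60 for ENO2 and 0.40 for SLC16A3 by the same exact test. The shift was 37.2 percentage points upward for SLC2A3, and 7.45, 10.7 and 11.7 points downward for ALDOC, PFKFB3 and PFKP.

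**Figure D4:**
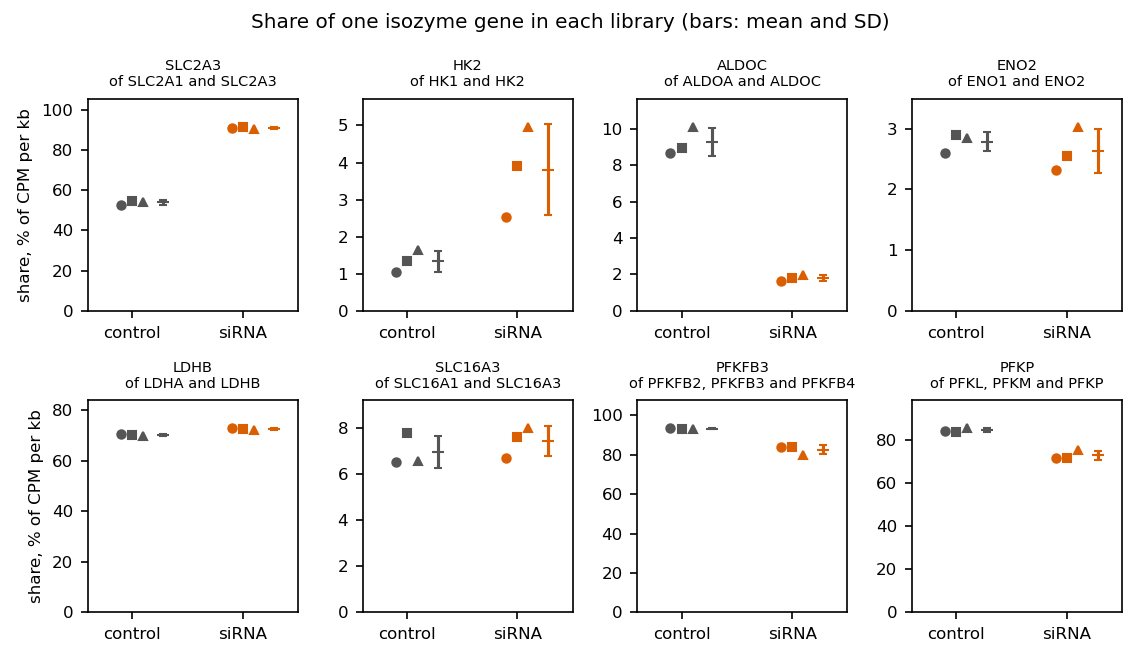
Share of 1 gene in the summed CPM per kilobase of its isozyme set (y axis, percent, each panel with its own scale from 0), for the 3 control (grey) and 3 HNRNPD siRNA libraries (orange), with a symbol for each replicate and the mean and SD beside them. The groups stand apart for SLC2A3, HK2, ALDOC, LDHB, PFKFB3 and PFKP and overlap for ENO2 and SLC16A3.

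At the entry of pyruvate into the mitochondria the genes diverged. PDHA1 encodes the alpha subunit of the first enzyme of the pyruvate dehydrogenase complex, which the kinases phosphorylate, and its levels overlapped, at 224.5, 206 and 207 CPM in control and 226, 230.3 and 212 CPM in siRNA libraries (log2 fold change 0.07, SE 0.06, edgeR adjusted p = 0.345). PDHA1 shares 21.3% of its exonic bases with other rows of the table, and the largest overlap is with MAP3K15 on the opposite strand. PDHB, the beta subunit of the same enzyme, fell from 200.3, 176 and 197 CPM to 133, 113 and 98 CPM (log2 fold change -0.74, SE 0.10, edgeR adjusted p = 6.45e-05).

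Of the 4 pyruvate dehydrogenase kinases, which switch the complex off, 3 were lower and 1 higher. Over all tested genes 27.8% were lower and 28.4% higher, and 4 genes are few to set against these shares. PDK4, a kinase known to be induced by fasting and fatty acids, was by far the most abundant per kilobase and rose from 121, 119 and 122 CPM to 170, 162 and 158.5 CPM (log2 fold change 0.43, SE 0.06, edgeR adjusted p = 3.06e-06). PDK1, known as a target of hypoxia, fell from 9.83, 10.1 and 10.9 CPM to 6.59, 6.34 and 5.82 CPM. PDK2 fell from 12.8, 11 and 10.8 CPM to 5.11, 5.15 and 4.84 CPM (log2 fold change -1.19, SE 0.11), and 38.6% of its exonic bases are shared, mostly with SAMD14 on the opposite strand. PDK3 fell from 5.07, 3.54 and 4.41 CPM to 1.7, 1.67 and 1.65 CPM (log2 fold change -1.37, SE 0.17). None of these 3 overlapped between the groups, which was also the case for 62.6% of all tested genes. Because PDK4 outweighs the rest, the summed level of the 4 kinases rose from 31.1 ± 0.679 to 38.1 ± 1.33 CPM per kilobase (SD, n = 3).

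In the pentose phosphate pathway 3 of the 5 genes were lower and the other 2 were not called. Of all tested genes, 27.8% were lower and 28.4% higher. PGD, a dehydrogenase that yields NADPH, was the most abundant of all 36 genes per kilobase, at 477 ± 37.2 CPM per kilobase in control and 255 ± 22.6 in siRNA libraries (SD, n = 3). Its levels were 1523, 1302 and 1418 CPM and 816, 768 and 685 CPM (1.87-fold, log2 fold change -0.90, SE 0.07, edgeR adjusted p = 9.35e-09). Without division by gene length, PKM and ENO1 were higher, with control means of 1767 and 1546 CPM against 1414 CPM for PGD. PGLS, the lactonase of the oxidative branch, was scarce, at 1.69, 2.03 and 3.31 CPM in control and 3.13, 2.74 and 2.15 CPM in siRNA libraries. It was not called (log2 fold change 0.19, SE 0.23), and the value was -0.01 without control replicate 1.

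The non-oxidative branch returns pentoses to glycolysis. TKT, the transketolase, fell from 430.5, 407 and 418 CPM to 271, 273 and 221 CPM (log2 fold change -0.71, SE 0.07), and TALDO1, the transaldolase, from 59.6, 58 and 55.7 CPM to 36.4, 39.2 and 32 CPM (log2 fold change -0.69, SE 0.07). RPIA, the ribose phosphate isomerase, was not called, at 5.63, 4.52 and 4.34 CPM in control and 5.66, 5.46 and 4.87 CPM in siRNA libraries. ME1, the cytosolic malic enzyme and another source of NADPH, stood at 27.8, 24.7 and 26.4 CPM in control and 31.6, 32.5 and 27.2 CPM in siRNA libraries, and these ranges overlap. Its call as higher (log2 fold change 0.21, SE 0.08, edgeR adjusted p = 0.0301) was lost under 6 of the 15 alternatives. Of these, 4 left out 1 library, namely control replicate 2 (edgeR adjusted p = 0.161) or 3 (0.087), or siRNA replicate 1 (0.106) or 2 (0.143).

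By summed level per kilobase, the steps kept much of their order. The highest were the oxidative pentose phosphate genes, lactate dehydrogenase, enolase and GAPDH in control libraries, at 478 ± 37.2, 409.8 ± 22.8, 402 ± 34.2 and 375 ± 14.1 CPM per kilobase (SD, n = 3). The libraries of lactate dehydrogenase, enolase and GAPDH overlapped, as did those of the oxidative pentose phosphate genes and enolase. In siRNA libraries these 4 were again the highest, at 256 ± 22.6 for the oxidative pentose phosphate genes, 230.2 ± 17.6 for enolase, 188 ± 23.1 for GAPDH and 186 ± 18.5 for lactate dehydrogenase (SD, n = 3), and the libraries of the first pair overlapped, as did those of the last pair. Glucose uptake moved from rank 17 to rank 10 of the 19 steps. Malic enzyme was the lowest in both groups.

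A further list of 72 genes covers the rest of these pathways, isozymes and neighbours that are not among the 36. This list, too, was chosen with earlier results of these data known. Of these, 58 could be tested, and 31 were lower and 9 higher, against 27.8% and 28.4% of all tested genes, with a median log2 fold change of -0.27. Of the 32 with a mean of at least 10 CPM, 21 were lower and 2 higher, against 38.1% and 31.2% of all tested genes at that level. The 14 that did not pass the filter on low counts include PKLR, FBP1, PGK2 and LDHC, which are known from liver or testis. At uptake and hexose phosphorylation, with glycogen enzymes, 10 of 17 tested genes were lower and 3 higher. PYGL, the liver glycogen phosphorylase, fell by 1.38 on the log2 scale (SE 0.06), from 92.3 to 35.5 CPM. PYGB, the brain form, fell by 1.07 (SE 0.06), from 78.2 to 37.2 CPM, and HKDC1 went from 118 to 57.1 CPM. SLC2A14, given above, and the glycogen synthase GYS1 were higher, GYS1 from 10.4 to 14 CPM (log2 fold change 0.43, SE 0.09).

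Among the remaining enzymes of glycolysis and its reversal, 6 of 14 tested genes were lower and 3 higher. With so few genes these counts lie not far from the 27.8% and 28.4% of all tested genes. GPD1L, related to glycerol phosphate dehydrogenase, fell by 1.43 on the log2 scale (SE 0.12), from 9.21 to 3.42 CPM. The mitochondrial PEP carboxykinase PCK2 fell from 17.3 to 11.1 CPM and the muscle enolase ENO3 from 72 to 53.5 CPM, where ENO3 shares a few exonic bases with the gene PFN1 on the opposite strand. GAPDHS, the GAPDH of sperm, rose from 3.48 to 6.99 CPM, but 60.8% of its exonic bases are shared with other genes, mostly one on the opposite strand.

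For pyruvate entry and use, 9 of 19 tested genes were lower and 3 higher. Of the 13 with a mean of at least 10 CPM, 7 were lower and 1 higher. At that level 38.1% of all tested genes were lower and 31.2% higher, and 13 genes are few to set against these shares. The mitochondrial pyruvate carrier subunit MPC1 rose from 2.69 to 4.61 CPM (log2 fold change 0.77, SE 0.16). PDPR, a regulator of pyruvate dehydrogenase phosphatase, rose from 28 to 33.1 CPM, a call that was lost without control replicate 1 (edgeR adjusted p = 0.101) or siRNA replicate 1 (0.0513) or 2 (0.0522). The mitochondrial malate dehydrogenase MDH2, malic enzyme ME2 and aspartate aminotransferase GOT2 were lower, with log2 fold changes of -0.54 (SE 0.07), -0.53 (SE 0.07) and -0.51 (SE 0.08). SLC16A8, a lactate carrier of retinal epithelium, was named after its values were seen because it lies farthest to the right in the plot of these genes. It rose from 0.243 to 1.68 CPM (log2 fold change 2.77, SE 0.29, edgeR adjusted p = 2.27e-07).

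In the pentose phosphate list, 6 of 8 tested genes were lower and the other 2 were not called. Of all tested genes, 27.8% were lower and 28.4% higher. PRPS1, which makes the ribose donor of nucleotide synthesis, fell by 0.87 on the log2 scale (SE 0.06), from 76.4 to 41.7 CPM. DERA, the deoxyribose phosphate aldolase, fell by 1.03 (SE 0.11), from 10.5 to 5.17 CPM.

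**Figure D5:**
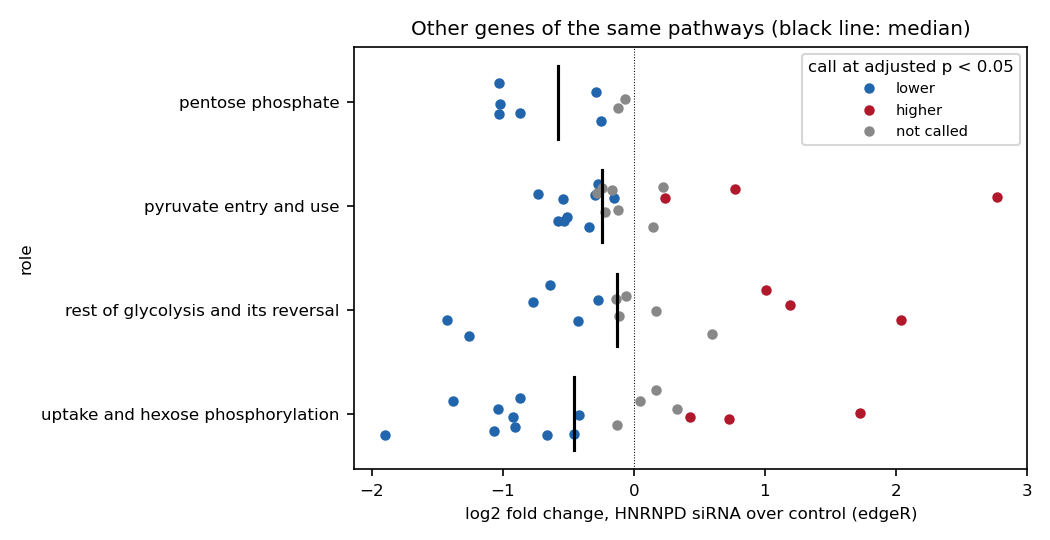
Log2 fold change (x axis, HNRNPD siRNA over control, edgeR) of the 58 tested genes of the further list by role, with 1 point a gene coloured by call, a black line at each role's median, and a vertical scatter that carries no value. The medians lie below 0 in all 4 roles, from -0.13 in the rest of glycolysis to -0.58 in the pentose phosphate list.

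Reads shared with other genes limit some of these values. Of the 36 genes, 16 share no exonic base with another row of the table, 16 share less than 10%, and 4 share more, namely ALDOC, GAPDH, PDHA1 and PDK2. For 15 of the genes the table holds 106 pseudogene rows that carry their name. The counts of these rows came to less than 1% of the parent's in both groups for 13 of the genes. They came to 25.8% in control and 7.84% in siRNA libraries for SLC2A3, and to 0.757% and 1.14% for PGAM1.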

How the data were processed

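RNA was sequenced from 6 libraries of A549 cells. Per the labels, RNA was taken with Trizol and libraries were made with an Illumina TruSeq RNA kit. The authors deposited whole-number read counts per gene with coordinates and gene length. Per the submitters' processing notes, Bowtie 0.12.2, GRCh38 and mm8 were named without roles. Counter, annotation and strand setting remain not given in the sources used here, while 28 of the 36 genes had the coordinates of GENCODE 29 (GRCh38) and all overlapped them. Even numbers made up 66.2% to 69.5% of counts from 1 to 20, as when both mates of a pair are counted.

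Counts were tested with edgeR 4.0.16 in R 4.3.3 (filterByExpr, TMM, robust quasi-likelihood test, group as the only term, Benjamini-Hochberg adjustment over 20465 genes). Standard errors came from the fold change and its F statistic. The script was tested on simulated data. Limma 3.58.1 and DESeq2 1.42.0 were used as alternatives, with other filters, scalings, a replicate block and each library left out in turn. CPM per kilobase divides by the table's gene length. The totals per library were 37151094 to 43005090 counts. Precision depends on depth and on the spread between libraries. The errors of scarce genes such as HK2 and PGLS are wide, while the SE was 0.10 for PDHB and 0.06 for the less abundant PFKM. The genes and lists were chosen with earlier results of these data known. All 36 genes are named. Of the further list, the 2 higher and 3 lower genes per role with the smallest p and a mean of at least 1 CPM are named, with SLC16A8 added, except that 1 such gene is not reported here.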

Additional observations from a re-analysis of the deposited data

How the results depend on the processing

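Over 15 alternative settings, the count of lower genes among the 36 ran from 25 to 26 and that of higher genes from 4 to 6, and the median log2 fold change from -0.78 to -0.66. Of the 31 called genes, 28 kept call and direction in every setting; HK2, PFKL and ME1 did not. ME1 was also not called with no filter on low counts (adjusted p = 0.0528) or by DESeq2 (adjusted p = 0.0539). The log2 fold change of PGLS ran from -0.01, without control replicate 1, to 0.51 with single libraries left out; the cause was not tested. Leaving out each library in turn moved the difference in the ENO2 share from -0.347 to 0.00804 percentage points, against -0.147 with all libraries, and it was above 0 without HNRNPD siRNA replicate 1 (cause not tested). Taken from counts without division by gene length, the difference in share was 33.3 points for SLC2A3, -3.76 for ALDOC, -15.2 for PFKFB3 and -15.1 for PFKP, which follows from the unequal gene lengths. With the replicate number as a block, 25 of the 36 genes were lower and 6 higher, as without it. Deviations of same-numbered libraries correlated by 0.043, 0.027 and 0.018 over genes, so the numbers were not taken as pairs. Depth limits the scarcest genes, HK2, PDK3 and PGLS.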
